A study of Sus scrofa with 9 samples.

Results

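The collagen genes were the rows of the count table whose symbol is COL, a number, the letter A and a number. The rule found 43 of the 30942 genes in the table, and 33 of the 43 had enough counts to be tested. All 43 gene identifiers matched RefSeq on the pig assembly Sscrofa11.1, each with the same start position in both. Messenger RNA had been profiled in the heart of wild-type (WT) miniature pigs, Sus scrofa, in 3 groups of 3 libraries. They were given doxorubicin plus formononetin, doxorubicin, or vehicle. Doxorubicin is an anthracycline used in chemotherapy and known for its toxicity to heart muscle, and formononetin is a plant isoflavone. The study asked about the pathway of the nuclear receptor ERRα and about mitochondrial metabolism in anthracycline heart damage. The sources used here do not give the dose, the treatment time, the part of the heart, or the age and sex of the pigs. The labels also do not say whether a group's libraries stem from different animals, and p-values therefore measure only how far these samples spread, which may be technical.

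Collagens are secreted or membrane-bound proteins whose alpha chains wind around each other as a triple helix. In the heart, types I and III form the fibrils between muscle cells and come mainly from fibroblasts. Type IV forms the sheet of the basement membrane around cardiomyocytes and capillaries, and type VI forms beaded filaments that link that membrane to the fibrils. Fibril-associated collagens (FACITs) bind the surface of fibrils, short-chain collagens form lattices in vessel walls and under endothelia, and multiplexins such as types XV and XVIII sit in basement membranes.

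Library totals ranged from 16291952 to 17549359 counts. Replicate 2 of doxorubicin plus formononetin had 14766 genes detected, whereas the remaining libraries had 18107 to 19304. Checked against the heart label, 12 cardiomyocyte markers, all of them tested, summed to between 51101 and 85278 CPM (counts scaled to 1e+06 per library) in each library. Levels are CPM scaled by the trimmed mean of M-values (TMM), and levels of different genes are compared only per kilobase of the deposited gene length. Changes are log2 fold changes ± standard error from edgeR's quasi-likelihood test, with p adjusted by Benjamini-Hochberg over the 14846 tested genes. Calls are at an adjusted p under 0.05.

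COL3A1, the chain of type III collagen, had the highest level per kilobase in every group, with means of 356, 199.7 and 260.0 CPM per kb in doxorubicin plus formononetin, doxorubicin and vehicle libraries. COL1A2, COL4A1, COL1A1 and COL4A2 followed when the 9 libraries were averaged. All 43 genes together took 0.569%, 0.752% and 0.330% of the counts in the 3 doxorubicin plus formononetin libraries. In doxorubicin libraries the share was 0.520%, 0.438% and 0.454%, and in vehicle libraries 0.393%, 0.520% and 0.579%. The ranges of the 3 groups overlapped.

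The make-up of that share differed more than its size. The type VI genes held 12.5% ± 1.49 of collagen counts in doxorubicin plus formononetin libraries, 5.76% ± 0.788 in doxorubicin libraries and 12.7% ± 1.13 in vehicle libraries (SD, n = 3 each). The short-chain genes held 0.343% to 0.823%, 2.21% to 3.37% and 0.720% to 1.04% in the same order of groups. Type IV genes held 17.2% ± 4.86, 27.8% ± 3.62 and 23.3% ± 5.04. In both the type VI and the short-chain class the 3 doxorubicin libraries lay outside the range of the other 6, whereas for type IV the doxorubicin and vehicle ranges overlapped.

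**Figure D1:**
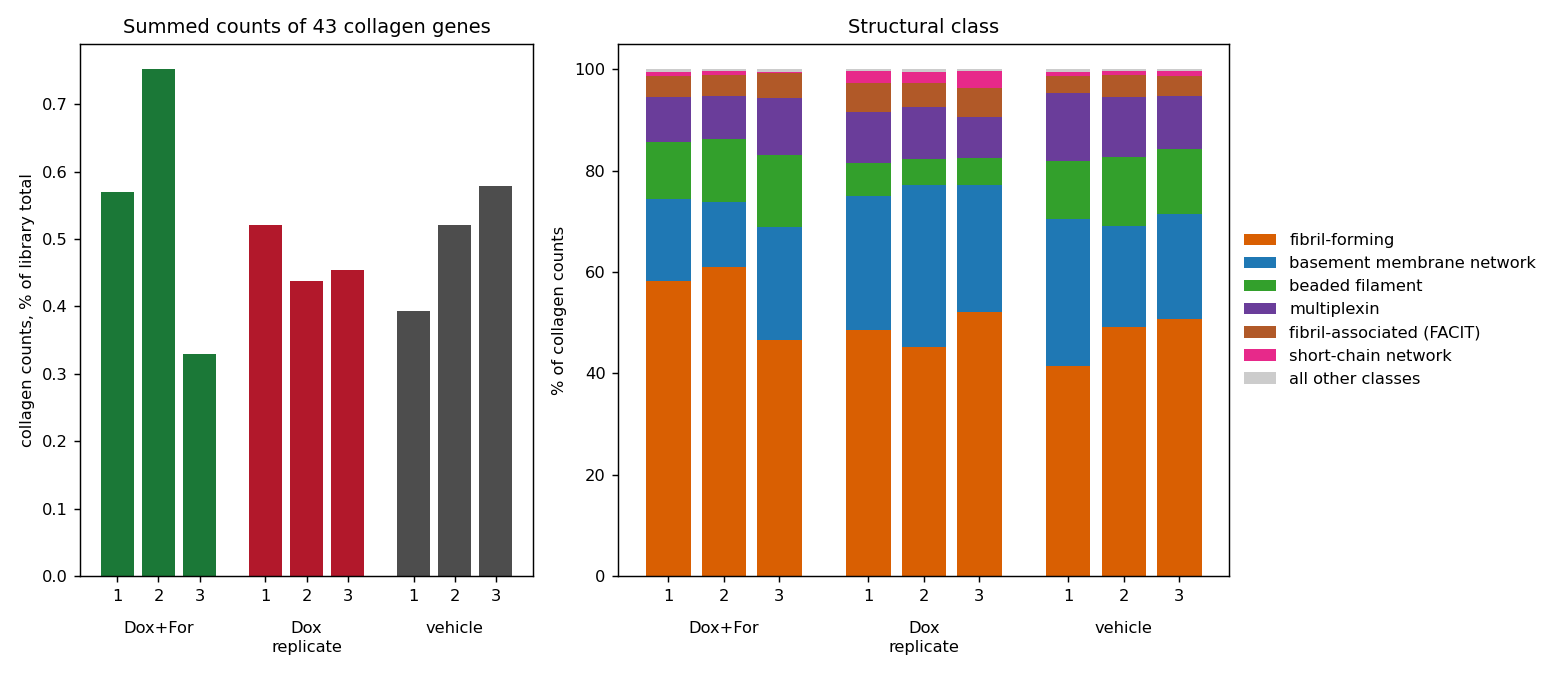
Collagen counts by library. The left panel gives the summed counts of the 43 collagen genes as a percent of each library's total, and the right panel splits each library's collagen counts by structural class, in percent. Bars are single libraries of doxorubicin plus formononetin (Dox+For), doxorubicin (Dox) and vehicle. The beaded filament band, made of type VI genes, is 5.26% to 6.67% in doxorubicin libraries and 11.11% to 14.09% in the other 6.

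Libraries within a group differed for collagens. Over the 22 members with a mean of at least 5 CPM, replicate 3 of doxorubicin plus formononetin was the lowest of its group for 20 and replicate 2 the highest for 17. Among all 10534 genes of that level the same libraries were lowest for 30.2% and highest for 36.5%. In the vehicle group, replicate 1 was the lowest for 17 of the 22. The median coefficient of variation of these members was 29.0%, 18.2% and 24.1% in doxorubicin plus formononetin, doxorubicin and vehicle libraries, against 14.75%, 11.06% and 8.30% over all genes. The summed fibroblast markers followed a like order, with 3494, 4073 and 2457 CPM in replicates 1, 2 and 3 of doxorubicin plus formononetin, and 2275, 4086 and 3864 CPM in vehicle replicates 1, 2 and 3. The share of counts from mitochondrially encoded genes was 26.1%, 22.0% and 28.8% in doxorubicin plus formononetin replicates 1, 2 and 3, 23.3% to 24.4% in doxorubicin libraries and 20.7% to 21.3% in vehicle libraries. The part of these markers and of this share in the collagen values was not tested. In heart tissue, fewer cells of a type and less RNA per cell cannot be told apart.

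In doxorubicin against vehicle, 17 of 33 collagen genes (51.5%) were called, 6 higher and 11 lower. Over all genes tested 33.3% were called, 16.3% higher and 17% lower. The 3 doxorubicin libraries and the 3 vehicle libraries did not overlap for 17 of the 33 members (51.5%), against 55.3% of all genes. The median log2 fold change of the members was -0.23, against 0.00 over all genes. All 4 type VI genes were lower and both tested short-chain genes were higher, while COL1A1 and COL1A2, the type I chains, were not called. Leaving out 1 library at a time gave 2 to 6 members higher and 7 to 13 lower. The count of 2 higher came without doxorubicin replicate 3 or vehicle replicate 2. The count of 7 lower came without doxorubicin replicate 2 or 3, or vehicle replicate 2 or 3.

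Doxorubicin plus formononetin against doxorubicin alone gave 14 called members of 33 (42.4%), 8 higher and 6 lower. Over all genes 28.1% were called, 14.7% higher and 13.5% lower. The groups did not overlap for 15 members (45.5%), against 42.2% of all genes. The median was 0.39 for the members and -0.01 for all genes. Without replicate 3 of doxorubicin plus formononetin, the counts were 12 higher and 3 lower, and without doxorubicin replicate 3 they were 8 and 3. Without replicate 2 of doxorubicin plus formononetin, the library with the fewest genes detected, they were 7 and 6.

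The pair of comparisons shares the doxorubicin libraries, which enter with opposite sign, so their calls are not independent. Side by side, 7 members were lower in doxorubicin than in vehicle and higher in doxorubicin plus formononetin than in doxorubicin: COL27A1, COL15A1, COL6A2, COL16A1, COL6A6, COL6A5 and COL6A3. Another 5 members, COL12A1, COL11A1, COL4A1, COL8A1 and COL8A2, were higher in the first and lower in the second. Called in doxorubicin against vehicle but not past the threshold in the other comparison were COL17A1, higher, and COL5A3, COL21A1, COL4A6 and COL13A1, lower. The reverse held for COL3A1, higher, and COL4A5, lower, with doxorubicin plus formononetin against doxorubicin. Whether the changes of these 7 members differ in size between the comparisons was not tested. In neither comparison were 14 members called.

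**Figure D2:**
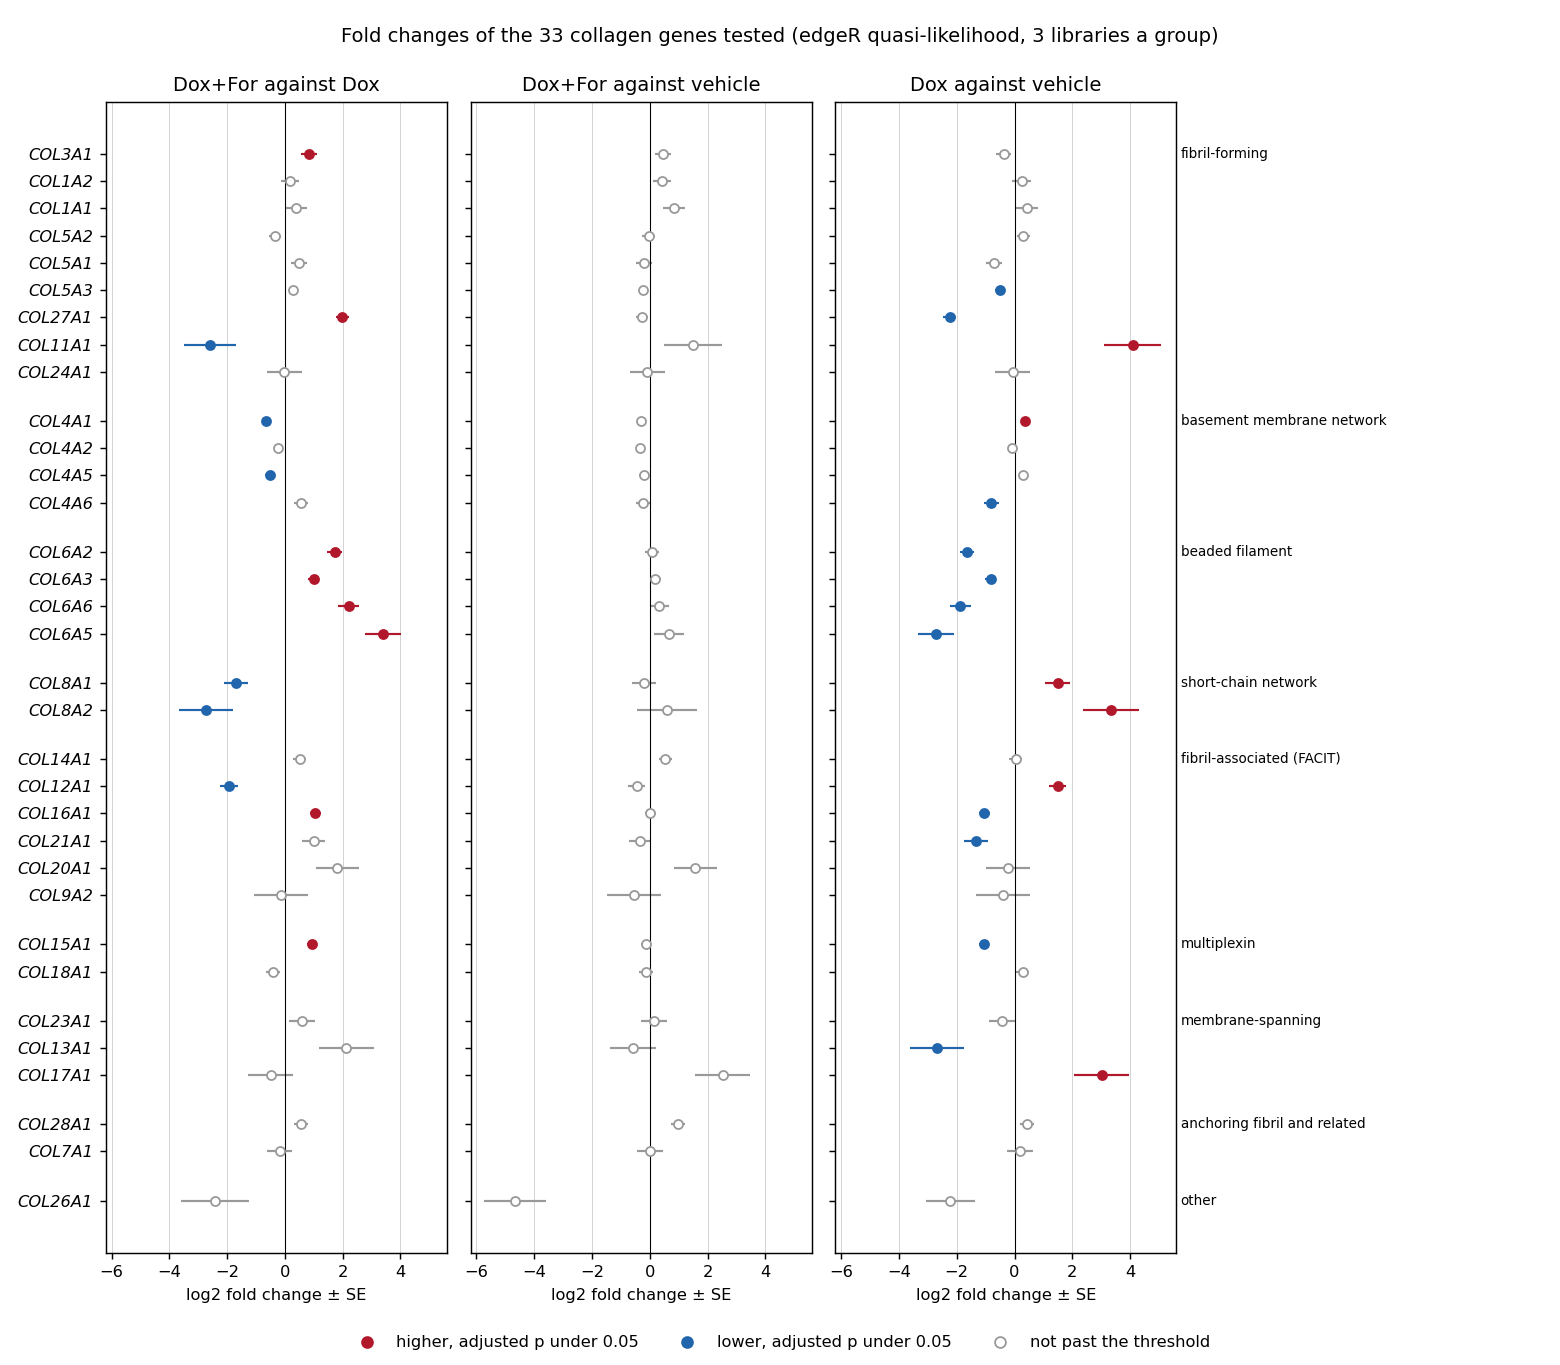
Log2 fold changes of the 33 tested collagen genes. Each of the 3 comparisons has its own panel, points are log2 fold changes and bars are standard errors. Called members are marked, numbering 17 in the comparison of doxorubicin with vehicle, 14 where doxorubicin plus formononetin is set against doxorubicin, and 0 where it is set against vehicle.

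The type VI genes moved together. COL6A2, the alpha-2 chain found in nearly all type VI collagen, stood at 327, 453 and 231 CPM in doxorubicin plus formononetin libraries, 125, 84.4 and 96.7 CPM in doxorubicin libraries and 229, 360.0 and 369 CPM in vehicle libraries. COL6A3, the long alpha-3 chain that carries most of the filament's globular domains, stood at 295, 369 and 251 CPM, 185, 130.3 and 142 CPM, and 204, 287 and 314 CPM in the same groups. For both genes all 3 doxorubicin libraries were below all 6 others. COL6A2 changed by -1.65 ± 0.25 with doxorubicin against vehicle (adjusted p = 0.00074) and by 1.72 ± 0.25 with doxorubicin plus formononetin against doxorubicin (adjusted p = 0.00089). COL6A3 changed by -0.82 ± 0.19 (adjusted p = 0.00755) and by 1.0 ± 0.19 (adjusted p = 0.00354).

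COL6A6 and COL6A5 encode the alpha-6 and alpha-5 chains, which resemble alpha-3 and can take its place in the trimer. The genes lie next to each other on the minus strand of chromosome 13, COL6A6 at 1817475 to 1985968 and COL6A5 at 2029543 to 2174404, with 43574 bases between them. COL6A6 had 48.7, 58.0 and 28.7 CPM in doxorubicin plus formononetin libraries, 14.6, 6.92 and 7.68 CPM in doxorubicin libraries and 24.2, 50.9 and 32.8 CPM in vehicle libraries. COL6A5 was scarce, with 59, 176 and 53 counts in doxorubicin plus formononetin libraries, 17, 7 and 4 counts in doxorubicin libraries and 28, 78 and 79 counts in vehicle libraries. Here too every doxorubicin library was below the other 6. COL6A6 changed by -1.88 ± 0.35 (adjusted p = 0.00223) with doxorubicin against vehicle and by 2.21 ± 0.35 (adjusted p = 0.00139) with doxorubicin plus formononetin against doxorubicin. The depth-scaled count ratio of COL6A5 was 0.151 for doxorubicin over vehicle (95% exact interval 0.0977 to 0.226, counting error only, adjusted p = 0.00667). For doxorubicin plus formononetin over doxorubicin it was 10.7 (7.27 to 16.4, adjusted p = 0.00285). The first of these COL6A5 calls was lost in limma-voom (adjusted p = 0.0782). Without doxorubicin replicate 1 the fitted log2 values of -2.72 and 3.39 were -3.41 and 4.08, and the second was 2.69 without replicate 2 of doxorubicin plus formononetin.

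No row carries the symbol COL6A1, the third of the usual chains. An unnamed locus described in the table as a collagen alpha-1(VI) chain, LOC100623720, was looked up after its values were seen. It had 257, 334 and 175 CPM in doxorubicin plus formononetin libraries, 114, 83.2 and 105 CPM in doxorubicin libraries and 184, 301 and 295 CPM in vehicle libraries. Its changes were -1.37 ± 0.24 with doxorubicin against vehicle (adjusted p = 0.00161) and 1.34 ± 0.24 with doxorubicin plus formononetin against doxorubicin (adjusted p = 0.00251). It is 1 of 37 loci outside the rule that the table describes as collagen alpha chains, of which 27 had counts and 11 were tested.

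Some markers of resident fibroblasts, the main source of type VI collagen, moved in the same direction. Of 13 tested fibroblast markers, 6 were lower and 0 higher in doxorubicin than in vehicle libraries, or 2 higher without replicate 3 of doxorubicin plus formononetin. The other 7 were not called, and over all genes 17% were lower and 16.3% higher. Against doxorubicin, doxorubicin plus formononetin had 5 markers higher, or 3 without doxorubicin replicate 3, and 0 lower. Of all genes 14.7% were higher and 13.5% lower there. Their summed level was 2457 to 4073 CPM in doxorubicin plus formononetin libraries, 1008 to 1863 CPM in doxorubicin libraries and 2275 to 4086 CPM in vehicle libraries, and 1 of the 14 listed markers, PCOLCE, was at 0 in every library. PDGFRA, the receptor that marks cardiac fibroblasts, changed by -1.86 ± 0.38 (adjusted p = 0.00346) and by 1.86 ± 0.38 (adjusted p = 0.00456) in these comparisons. GSN, SCARA5 and MFAP5, the other members with the smallest p, changed by -1.92, -4.16 and -1.33 with doxorubicin against vehicle. Without doxorubicin replicate 1, SCARA5 was at -6.64 and PDGFRA at -2.62 with doxorubicin against vehicle, and PDGFRA at 2.62 in the other comparison. SCARA5 was at -5.14 in limma-voom and -5.31 in limma-voom with sample quality weights. The part of these markers in the type VI values was not tested.

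**Figure D3:**
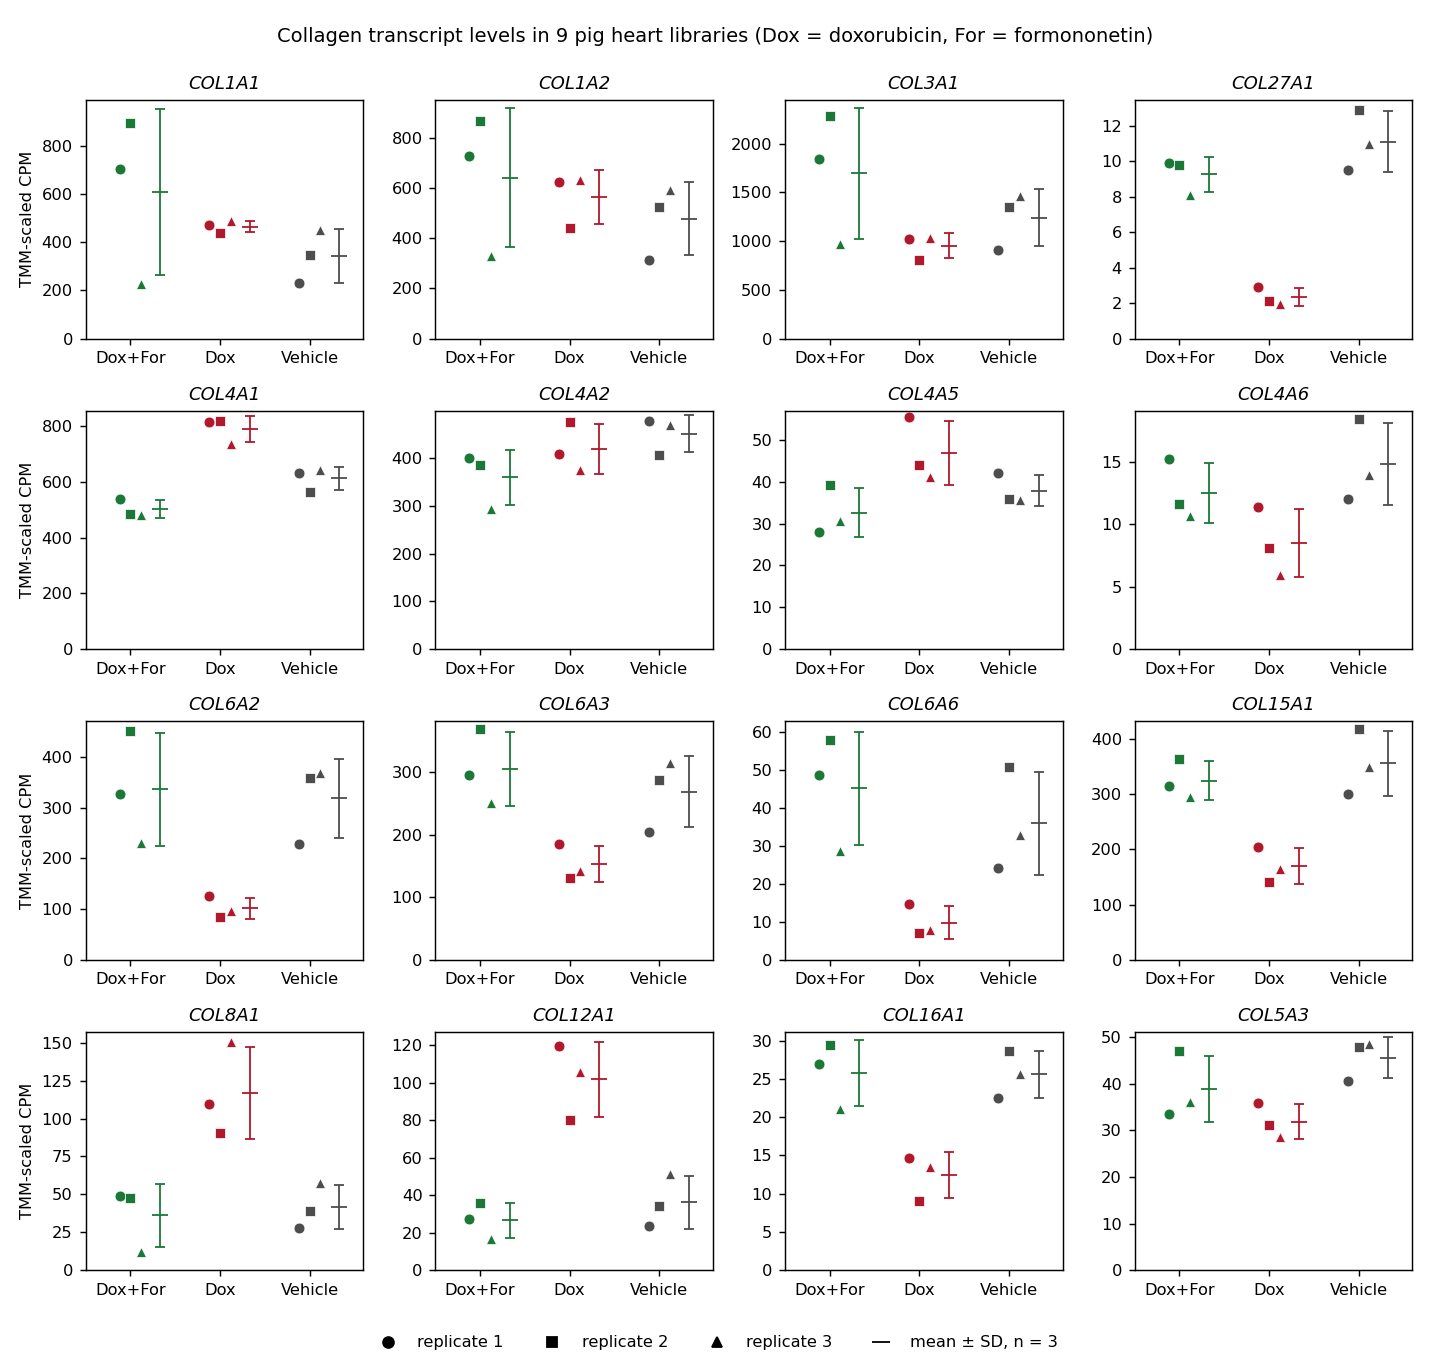
Levels of 16 collagen genes by library. Each panel is a gene, each point a library, and the axis is TMM-scaled CPM, with doxorubicin plus formononetin, doxorubicin and vehicle libraries from left to right. The doxorubicin points of COL6A2 sit between 84.4 and 125 CPM, below the other 6, and those of COL12A1 between 80.2 and 119.7 CPM, above the other 6.

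Both multiplexins were abundant, and 1 of them changed. COL15A1, which lies in the basement membrane zone of muscle fibres and capillaries, is at chromosome 1, 240718128 to 240829188, plus strand. Its levels were 316, 364 and 296 CPM in doxorubicin plus formononetin libraries, 205, 141 and 165 CPM in doxorubicin libraries and 299.8, 419 and 350.3 CPM in vehicle libraries. The doxorubicin libraries lay below all others. It changed by -1.07 ± 0.16 with doxorubicin against vehicle (adjusted p = 0.000654) and by 0.93 ± 0.16 with doxorubicin plus formononetin against doxorubicin (adjusted p = 0.00196). COL18A1, whose C-terminal fragment is endostatin, had 229.9, 240.3 and 119 CPM, 279, 294 and 209 CPM, and 230.4, 183 and 230.5 CPM in the same groups, and was not called in either comparison.

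The type IV genes split. COL4A1 and COL4A2 encode the chains of the common basement membrane trimer, lie head to head on chromosome 11 (COL4A1 at 76858332 to 76997409, minus strand; COL4A2 at 76996885 to 77161617, plus strand) and overlap by 525 bases. How strand was handled in the counting is not given in the sources used here, so reads from the overlap cannot be assigned to 1 of them. COL4A1 had 539, 487 and 483 CPM in doxorubicin plus formononetin libraries, 817, 818 and 735 CPM in doxorubicin libraries and 632, 565 and 642 CPM in vehicle libraries. COL4A2 had 400.1, 385 and 294 CPM, 408, 477 and 375 CPM, and 477, 408 and 469 CPM in the same groups. The 3 groups did not overlap for COL4A1, with doxorubicin highest and doxorubicin plus formononetin lowest, while for COL4A2 the doxorubicin libraries overlapped both others. COL4A1 changed by 0.36 ± 0.10 with doxorubicin against vehicle (adjusted p = 0.0161) and by -0.65 ± 0.10 with doxorubicin plus formononetin against doxorubicin (adjusted p = 0.00114). COL4A2 changed by -0.10 ± 0.14 (adjusted p = 0.597) and by -0.22 ± 0.14 (adjusted p = 0.251). The first COL4A1 call was lost without doxorubicin replicate 1 (adjusted p = 0.0544), without doxorubicin replicate 2 (adjusted p = 0.059) and without vehicle replicate 2 (adjusted p = 0.0871).

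COL4A5 and COL4A6 are neighbours on the X chromosome and encode chains of less common type IV trimers, found in kidney and around smooth muscle. COL4A5 had 28.0, 39.1 and 30.7 CPM in doxorubicin plus formononetin libraries, 55.5, 43.9 and 41.2 CPM in doxorubicin libraries and 42.0, 35.8 and 35.7 CPM in vehicle libraries. COL4A6 had 15.2, 11.6 and 10.7 CPM, 11.3, 8.11 and 5.96 CPM, and 12.01, 18.4 and 13.9 CPM in the same groups. Doxorubicin libraries were thus at the high end for COL4A5 and at the low end for COL4A6. COL4A5 was lower with doxorubicin plus formononetin against doxorubicin (-0.52 ± 0.15, adjusted p = 0.0266), and COL4A6 was lower with doxorubicin against vehicle (-0.80 ± 0.25, adjusted p = 0.0292). The COL4A5 call was lost without replicate 1 (adjusted p = 0.0927) or 3 (adjusted p = 0.0588) of doxorubicin plus formononetin, without doxorubicin replicate 1 (adjusted p = 0.11) and in a fit of those 2 groups only (adjusted p = 0.0587). The COL4A6 call was lost without doxorubicin replicate 2 or 3, or vehicle replicate 2 or 3 (adjusted p from 0.0609 to 0.135). COL4A3 and COL4A4, the chains of the glomerular trimer, had 23 and 32 counts over all 9 libraries and were not tested.

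Both tested short-chain genes were higher in doxorubicin libraries. COL8A1, the alpha-1 chain of type VIII collagen, which vessel wall cells make, had 48.7, 47.9 and 12.1 CPM in doxorubicin plus formononetin libraries, 109.7, 90.7 and 150.3 CPM in doxorubicin libraries and 28.1, 39.3 and 57.4 CPM in vehicle libraries. COL8A2, its partner chain, had 21, 0 and 5 counts, 69, 34 and 81 counts, and 1, 9 and 8 counts in the same groups. For both genes every doxorubicin library was above the other 6. COL8A1 changed by 1.49 ± 0.42 with doxorubicin against vehicle (adjusted p = 0.0186) and by -1.69 ± 0.42 with doxorubicin plus formononetin against doxorubicin (adjusted p = 0.0133). The count ratio of COL8A2 was 10.2 for doxorubicin over vehicle (95% exact interval 6.28 to 17.6, adjusted p = 0.0219) and 0.147 for doxorubicin plus formononetin over doxorubicin (0.0939 to 0.223, adjusted p = 0.0487). Both intervals cover counting error only, and the p-values are from edgeR. COL10A1, of the same class, was not tested. It had 0, 0 and 1 counts, 4, 6 and 0 counts, and 11, 8 and 1 counts in the same groups.

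The calls of COL8A1 and COL8A2 did not hold in every fit with 1 library left out. Against vehicle, that of COL8A1 was lost without doxorubicin replicate 3 (adjusted p = 0.0722), vehicle replicate 1 (adjusted p = 0.07) or vehicle replicate 2 (adjusted p = 0.0624). That of COL8A2 was lost without any of doxorubicin replicates 1 and 3 and the 3 vehicle libraries (adjusted p from 0.0532 to 0.0800). It was also lost with replicate number as a block (adjusted p = 0.0546). For doxorubicin plus formononetin against doxorubicin, COL8A1 was lost without doxorubicin replicate 3 (adjusted p = 0.0525). COL8A2 was lost without replicate 3 of doxorubicin plus formononetin, without any 1 doxorubicin library and without any 1 vehicle library (adjusted p from 0.0522 to 0.153). COL8A2 was also lost with library sizes that leave out mitochondrially encoded genes (adjusted p = 0.0511). In limma-voom with sample quality weights, the 2-group fit and the fit with replicate number as a block it was lost too (adjusted p from 0.0695 to 0.0734). Its fitted log2 value of -2.74 was -4.46 without replicate 1 of doxorubicin plus formononetin and -2.14 without replicate 2, and -1.70 in limma-voom with sample quality weights and -3.89 in limma-voom.

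Among the FACIT genes, COL12A1 went one way and COL16A1 the other. COL12A1, whose product bridges type I fibrils in tissues under tension, lies at chromosome 1, 90744409 to 90875127, plus strand. Its levels were 27.1, 35.7 and 16.6 CPM in doxorubicin plus formononetin libraries, 119.7, 80.2 and 106 CPM in doxorubicin libraries and 23.4, 34.1 and 51.3 CPM in vehicle libraries. COL16A1, a minor FACIT, had 27.0, 29.4 and 21.0 CPM, 14.7, 9.05 and 13.5 CPM, and 22.5, 28.6 and 25.6 CPM in the same groups. In both genes the doxorubicin libraries stood outside the range of the other 6, above it for COL12A1 and below it for COL16A1. COL12A1 changed by 1.49 ± 0.30 with doxorubicin against vehicle (adjusted p = 0.0032) and by -1.94 ± 0.30 with doxorubicin plus formononetin against doxorubicin (adjusted p = 0.00124). COL16A1 changed by -1.04 ± 0.19 (adjusted p = 0.00211) and by 1.05 ± 0.19 (adjusted p = 0.00281).

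COL21A1, a FACIT described in vessel walls, had 5.53, 9.97 and 4.91 CPM in doxorubicin plus formononetin libraries, 5.29, 2.49 and 2.46 CPM in doxorubicin libraries and 4.87, 11.3 and 9.58 CPM in vehicle libraries. The groups overlapped, since doxorubicin replicate 1 was above vehicle replicate 1. Its change of -1.33 ± 0.41 with doxorubicin against vehicle (adjusted p = 0.0269) was lost without doxorubicin replicate 2 or 3, or vehicle replicate 2 or 3 (adjusted p from 0.0796 to 0.109). With replicate number as a block it was lost too (adjusted p = 0.0521). COL14A1, which binds fibrils through decorin, had 190.0, 222 and 130.2 CPM, 143, 105 and 133 CPM, and 88.6, 151 and 132 CPM in the 3 groups and was not called.

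The major fibril genes gave no stable call. COL1A1 had 704, 896 and 226 CPM in doxorubicin plus formononetin libraries, 469.9, 439 and 487 CPM in doxorubicin libraries and 230.4, 346 and 452 CPM in vehicle libraries. COL1A2 had 729, 865 and 330.3 CPM, 622, 441 and 633 CPM, and 315, 525 and 594 CPM in the same groups. COL3A1 had 1841, 2282 and 965 CPM, 1020.0, 803 and 1033 CPM, and 908, 1349.7 and 1462 CPM. For COL1A1 and COL1A2 the doxorubicin libraries lay inside the spread of doxorubicin plus formononetin, where replicate 3 was far below replicates 1 and 2. COL1A1 changed by 0.44 ± 0.38 with doxorubicin against vehicle (adjusted p = 0.41) and by 0.39 ± 0.38 with doxorubicin plus formononetin against doxorubicin (adjusted p = 0.475). COL1A2 changed by 0.24 ± 0.32 (adjusted p = 0.593) and by 0.18 ± 0.32 (adjusted p = 0.697). Without replicate 3 of doxorubicin plus formononetin, COL1A1 was higher than in doxorubicin by 0.78 (adjusted p = 0.0215).

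COL3A1 was called higher with doxorubicin plus formononetin against doxorubicin (0.83 ± 0.27, adjusted p = 0.0391), although replicate 3 of doxorubicin plus formononetin lay below 2 doxorubicin libraries. Without that library the change was 1.11 (adjusted p = 0.00212). The call was lost without replicate 1 or 2 of doxorubicin plus formononetin (adjusted p = 0.0993 and 0.125). It was also lost without any 1 doxorubicin library or without vehicle replicate 2 or 3 (adjusted p from 0.0504 to 0.132). Nor did it hold in limma-voom, in the 2-group fit or with replicate number as a block (adjusted p from 0.0563 to 0.0781). With doxorubicin against vehicle COL3A1 changed by -0.38 ± 0.27 (adjusted p = 0.303).

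Type V collagen, which nucleates fibrils and limits their width, has 3 chains here. COL5A1 had 105, 129.99 and 58.0 CPM in doxorubicin plus formononetin libraries, 76.9, 68.6 and 62.4 CPM in doxorubicin libraries and 76.1, 121 and 142 CPM in vehicle libraries. COL5A2 had 111, 129 and 71.5 CPM, 134, 114 and 147 CPM, and 78.2, 112 and 131 CPM in the same groups, and neither gene was called. COL5A3 had 33.5, 47.0 and 36.2 CPM, 35.9, 31.2 and 28.5 CPM, and 40.5, 47.8 and 48.5 CPM, with every doxorubicin library below every vehicle library. COL5A3 changed by -0.52 ± 0.15 with doxorubicin against vehicle (adjusted p = 0.019), and the call was lost without doxorubicin replicate 2 or 3, or vehicle replicate 2 or 3 (adjusted p from 0.0602 to 0.0699). COL5A1 changed by -0.70 ± 0.27 (adjusted p = 0.0672) in that comparison. It was called lower without replicate 2 or 3 of doxorubicin plus formononetin or without vehicle replicate 1 (adjusted p from 0.0175 to 0.0331). With no filter, in DESeq2, in limma-voom with sample quality weights and in the fit of the 2 groups alone it was called too (adjusted p from 0.0125 to 0.027). With doxorubicin plus formononetin against doxorubicin, COL5A1 was called higher without replicate 3 of doxorubicin plus formononetin (0.76, adjusted p = 0.0217).

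Of the minor fibrillar genes, COL27A1 was lower and COL11A1 higher with doxorubicin against vehicle, and COL24A1 was not called. COL27A1, a fibrillar collagen known from cartilage, lies at chromosome 1, 254768576 to 254924893, plus strand, and had the smallest adjusted p of all members with doxorubicin against vehicle. Its levels were 9.91, 9.80 and 8.12 CPM in doxorubicin plus formononetin libraries, 2.92, 2.13 and 1.97 CPM in doxorubicin libraries and 9.49, 12.9 and 10.98 CPM in vehicle libraries. It changed by -2.24 ± 0.22 (adjusted p = 8.38e-05), and by 1.98 ± 0.22 with doxorubicin plus formononetin against doxorubicin (adjusted p = 0.000234). COL11A1, a chain of cartilage fibrils that sets their diameter, had 17, 22 and 1 counts, 32, 42 and 167 counts, and 5, 8 and 1 counts in the same groups. Doxorubicin libraries were above the others, and replicate 3 held most of the counts of its group. The count ratio of COL11A1 was 17.2 for doxorubicin over vehicle (95% exact interval 10.1 to 31.9, adjusted p = 0.00861) and 0.173 for doxorubicin plus formononetin over doxorubicin (0.121 to 0.243, adjusted p = 0.0476). These intervals cover counting error only, not the spread between libraries, and the p-values are from edgeR.

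The fitted log2 values of COL11A1 in these comparisons were 4.09 and -2.59, and 2.91 and -1.42 without doxorubicin replicate 3. The first was 4.72 without vehicle replicate 2. The first COL11A1 call was lost without doxorubicin replicate 3 (adjusted p = 0.0603) and in limma-voom (adjusted p = 0.0918). The second was lost without doxorubicin replicate 2 or 3, replicate 1 or 3 of doxorubicin plus formononetin, or any 1 vehicle library (adjusted p from 0.0526 to 0.315). It was also lost in limma-voom with and without sample quality weights (adjusted p = 0.0742 and 0.127). The 2-group fit and replicate number as a block ended it too (adjusted p = 0.0691 and 0.122). Of 7 listed cartilage and valve markers, 3 were tested. MATN3 and CHAD were higher with doxorubicin against vehicle (3.40 and 2.39, adjusted p = 0.0272 and 0.0322), and SOX9 was not called. Over all genes 16.3% were higher. Without doxorubicin replicate 3, 0 of the markers were higher (adjusted p = 0.116 and 0.179 for MATN3 and CHAD). Vehicle replicate 1 also ended both calls when left out (adjusted p = 0.0985 and 0.0971). MATN3 was at 2.79 without doxorubicin replicate 3 and 4.69 without vehicle replicate 2, and CHAD at 1.56 without doxorubicin replicate 3 and 3.30 without vehicle replicate 3. The matched markers of that list summed to 3.14 to 11.5 CPM in doxorubicin plus formononetin libraries, 8.32 to 19.7 CPM in doxorubicin libraries and 2.52 to 7.63 CPM in vehicle libraries. Doxorubicin replicate 3 held the highest sum. The part of these markers in the COL11A1 values was not tested.

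A pair of membrane-spanning collagens was called with doxorubicin against vehicle at very low counts. COL17A1, the hemidesmosome collagen of epithelia, had 8, 19 and 3 counts in doxorubicin plus formononetin libraries, 14, 13 and 16 counts in doxorubicin libraries and 3, 0 and 2 counts in vehicle libraries. COL13A1, known from neuromuscular synapses, had 6, 10 and 10 counts, 2, 4 and 0 counts, and 5, 19 and 17 counts in the same groups. Doxorubicin and vehicle libraries did not overlap for either gene. The doxorubicin over vehicle count ratio was 8.59 for COL17A1 (95% exact interval 3.41 to 27.8, counting error only, adjusted p = 0.03) and 0.146 for COL13A1 (0.0507 to 0.346, adjusted p = 0.0447). Both calls were lost without any 1 of the 6 doxorubicin and vehicle libraries, with adjusted p from 0.0551 to 0.108 for COL17A1 and 0.0513 to 0.16 for COL13A1. They were also lost with no filter, in limma-voom and with replicate number as a block. There the adjusted p was 0.0512 to 0.0646 for COL17A1 and 0.079 to 0.0934 for COL13A1. Fitted log2 values were 3.02 for COL17A1, or 3.72 without vehicle replicate 1, and -2.70 for COL13A1, or -3.64 without doxorubicin replicate 2. The COL13A1 call was also lost without replicate 1 or 3 of doxorubicin plus formononetin (adjusted p = 0.0611 and 0.0582).

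Ratios of collagen chains were computed in each library, per kilobase, so that library size cancels. All but COL3A1 over COL1A1, types III and I, were within a collagen type. COL4A1 over COL4A2 averaged 1.38 ± 0.194 in doxorubicin plus formononetin libraries, 1.84 ± 0.151 in doxorubicin libraries and 1.32 ± 0.0314 in vehicle libraries (SD, n = 3 each). COL6A2 over COL6A3 averaged 2.59 ± 0.371, 1.59 ± 0.0426 and 2.82 ± 0.160, and COL5A1 over COL5A2 averaged 1.04 ± 0.112, 0.601 ± 0.108 and 1.18 ± 0.0685. COL3A1 over COL1A1 averaged 4.04 ± 1.25, 2.63 ± 0.237 and 4.75 ± 0.512. For each of these 4 ratios the doxorubicin libraries did not overlap the other 6. The exact two-sided permutation test gave p = 0.1 against vehicle and against doxorubicin plus formononetin, the smallest that 3 against 3 allows, and 0.18 after Benjamini-Hochberg adjustment over 18 tests. COL6A6 over COL6A5, both low, lay at 6.04 to 14.3, 16.4 to 32.8 and 7.82 to 15.1 and had the same p-values. With 3 against 3 the permutation test cannot reach the threshold for calls, so no conclusion is drawn from it for any ratio. The genes in the ratios were also chosen with earlier results of these data known, so only the values per library are described. COL1A1 over COL1A2 averaged 0.742 ± 0.154, 0.696 ± 0.112 and 0.595 ± 0.0435, and overlapped between the groups.

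**Figure D4:**
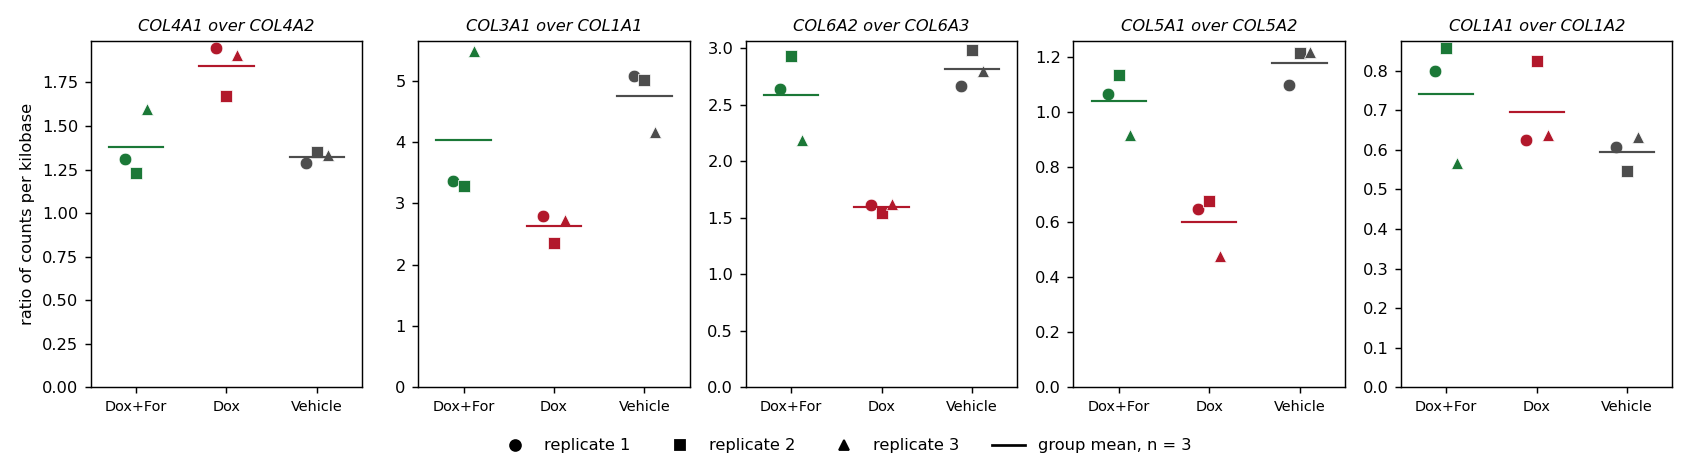
Ratios of collagen chains per kilobase by library. Points are single libraries of doxorubicin plus formononetin, doxorubicin and vehicle, and each panel is a ratio of CPM per kb. The doxorubicin libraries lie at 1.67 to 1.95 for COL4A1 over COL4A2 and at 1.55 to 1.63 for COL6A2 over COL6A3, apart from the other 6 in both.

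Doxorubicin plus formononetin against vehicle gave no called collagen gene out of 33 in edgeR, 0 higher and 0 lower, where 1.76% of all genes were called, 0.956% higher and 0.808% lower. At an unadjusted p under 0.05 there were 6 members: COL4A1, COL4A2, COL14A1, COL28A1, COL17A1 and COL26A1. DESeq2 called 1 higher and 1 lower, limma-voom 0, and limma-voom with sample quality weights 1 higher and 2 lower. The groups did not overlap for 6 members (18.2%), against 23.6% of all genes. The median log2 fold change was -0.04 for the members and -0.01 for all genes. Without replicate 3 of doxorubicin plus formononetin, COL1A1 (1.23, adjusted p = 0.0146) and COL28A1 (1.2, adjusted p = 0.0148) were higher than in vehicle.

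The main values of the first members in this comparison were 0.83 ± 0.38 for COL1A1 (adjusted p = 0.306) and 0.45 ± 0.27 for COL3A1 (adjusted p = 0.425). COL4A1 stood at -0.29 ± 0.10 (adjusted p = 0.184) and COL4A2 at -0.33 ± 0.14 (adjusted p = 0.265), and for both genes all 3 doxorubicin plus formononetin libraries were below all 3 vehicle libraries. A p that misses the threshold does not show that these groups were alike. COL26A1 had 2, 0 and 0 counts in doxorubicin plus formononetin libraries, 4, 8 and 1 counts in doxorubicin libraries and 20, 23 and 19 counts in vehicle libraries. Its count ratio for doxorubicin plus formononetin over vehicle was 0.0336 (95% exact interval 0.00398 to 0.127, counting error only, adjusted p = 0.0542). It was called with no filter, in DESeq2 and in limma-voom with sample quality weights (adjusted p = 0.0415, 0.00876 and 0.0239). Its fitted log2 value of -4.67 was -3.50 in limma-voom with sample quality weights. Without replicate 1 of doxorubicin plus formononetin that group was at 0 counts, and the adjusted p was 0.0813.

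COL28A1, which in mouse surrounds Schwann cells of peripheral nerve, had 17.4, 21.0 and 11.3 CPM in doxorubicin plus formononetin libraries, 11.7, 10.4 and 11.8 CPM in doxorubicin libraries and 10.99, 6.90 and 7.30 CPM in vehicle libraries. All 3 doxorubicin plus formononetin libraries were above all 3 vehicle libraries, and the change was 0.98 ± 0.24 (adjusted p = 0.0708). DESeq2 (adjusted p = 0.00981) and limma-voom with sample quality weights (adjusted p = 0.00809) called it. Schwann cell markers, 9 genes, summed to 153, 176 and 112 CPM in doxorubicin plus formononetin libraries. Their sums were 52.5, 46.9 and 49.3 CPM in doxorubicin libraries and 91.4, 80.7 and 72.2 CPM in vehicle libraries. Every doxorubicin library had a lower sum than every vehicle library. COL28A1 averaged 11.3 CPM in doxorubicin and 8.40 CPM in vehicle libraries, and those ranges overlapped. With doxorubicin plus formononetin against vehicle, 3 of the 9 markers were higher and 0 lower. Without replicate 1 of doxorubicin plus formononetin, 0 were higher. Over all genes 0.956% were higher and 0.808% lower in that comparison. The part of these markers in the COL28A1 values was not tested.

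The remaining tested members were COL23A1, COL7A1, COL9A2, COL20A1 and COL24A1, none of them called. COL7A1, the anchoring fibril of skin, had between 24 and 64 counts in every library. COL20A1 had 25, 55 and 35 counts in doxorubicin plus formononetin libraries, 3, 6 and 24 counts in doxorubicin libraries and 12, 6 and 22 counts in vehicle libraries. The 10 members not tested had 3 to 33 counts over all 9 libraries and at most 14 in 1 library. They were COL2A1, COL9A1, COL9A3, COL10A1, COL11A2, COL19A1, COL22A1 and COL25A1 beside COL4A3 and COL4A4, and no difference could be detected in them at this depth.

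Genes that fold, export and finish collagen gave a mixed picture. Among 17 chaperones and export factors, 9 were higher and 0 lower with doxorubicin against vehicle, where 16.3% of all genes were higher and 17% lower. The median was 0.44, against 0.00 over all genes. SEC23A, a coat protein of the vesicles that leave the endoplasmic reticulum, had 35.01, 40.6 and 38.5 CPM in doxorubicin plus formononetin libraries, 53.5, 56.3 and 50.9 CPM in doxorubicin libraries and 27.9, 26.0 and 24.8 CPM in vehicle libraries. HSPA5, the chaperone BiP, had 180.4, 142 and 185 CPM, 405, 392 and 398 CPM, and 220.0, 229 and 234 CPM in the same groups. Both were highest in every doxorubicin library. SEC23A rose by 1.03 ± 0.10 with doxorubicin against vehicle (adjusted p = 9.01e-05), HSPA5 by 0.81 ± 0.11 (adjusted p = 0.000414), PDIA3 by 0.54 ± 0.09 (adjusted p = 0.00128) and PREB by 0.62 ± 0.13 (adjusted p = 0.00431). FKBP7, MIA2, PPIB, SEC24D and SPARC completed the 9, and the calls of all but FKBP7 among these 5 were lost in fits that left out 1 doxorubicin or vehicle library, with adjusted p up to 0.159. Leaving out 1 library gave 6 to 9 members higher.

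Against doxorubicin, 5 of these 17 were lower in doxorubicin plus formononetin (HSPA5, PDIA3, SEC23A, FKBP7 and PPIB) and CREB3L1 was higher. Of all genes 13.5% were lower and 14.7% higher. Without doxorubicin replicate 3, 3 were lower, and CREB3L1 was not called without doxorubicin replicate 2 (adjusted p = 0.0563). HSPA5 changed by -1.24 ± 0.11 (adjusted p = 7.63e-05). SERPINH1, the chaperone HSP47 that is specific to collagen, was not called in either comparison, with 101, 112 and 71.6 CPM in doxorubicin plus formononetin libraries, 111, 107 and 135 CPM in doxorubicin libraries and 126, 129 and 145 CPM in vehicle libraries. Most of the called members also serve other secreted proteins.

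The hydroxylases and glycosyltransferases, which modify prolines and lysines of the chains, had 14 tested members. With doxorubicin against vehicle 2 were higher (PLOD2 and P4HA3) and 3 lower (P3H1, P4HA2 and P4HB), so that 5 of 14 were called where 33.3% of all genes were. PLOD2, which hydroxylates the lysines at chain ends, had 24.4, 25.2 and 20.5 CPM in doxorubicin plus formononetin libraries, 55.2, 38.7 and 52.7 CPM in doxorubicin libraries and 19.2, 24.4 and 25.4 CPM in vehicle libraries. It changed by 1.09 ± 0.16 with doxorubicin against vehicle (adjusted p = 0.0006) and by -1.06 ± 0.16 with doxorubicin plus formononetin against doxorubicin (adjusted p = 0.00108). P3H1 changed by -0.70 ± 0.14 and P4HA2 by -0.52 ± 0.12 with doxorubicin against vehicle (adjusted p = 0.00349 and 0.00695). The calls of P4HA3 and P4HB were lost in most fits without 1 doxorubicin or vehicle library, with adjusted p up to 0.156 and 0.137, and 1 member was higher without replicate 1 of doxorubicin plus formononetin or any 1 doxorubicin or vehicle library. The list had 2 higher and 3 lower members with doxorubicin plus formononetin against doxorubicin, where 14.7% and 13.5% of all genes were. It had 0 to 3 higher when 1 library was left out, with 0 without doxorubicin replicate 3. P4HA2 was the 1 member lower with doxorubicin plus formononetin against vehicle (-0.76 ± 0.12, adjusted p = 0.0107), and it was lost without vehicle replicate 3 (adjusted p = 0.0705).

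Of the 6 cross-linking enzymes, LOXL2, LOXL1 and LOXL3 were higher with doxorubicin against vehicle and 0 were lower. Among all genes 16.3% were higher and 17% lower. LOXL2, a lysyl oxidase known to act on type IV collagen, had 15.1, 14.1 and 10.9 CPM in doxorubicin plus formononetin libraries, 34.4, 29.4 and 33.4 CPM in doxorubicin libraries and 14.1, 19.8 and 21.7 CPM in vehicle libraries. All doxorubicin libraries were above the other 6. LOXL2 changed by 0.81 ± 0.18 (adjusted p = 0.00509), and by -1.28 ± 0.18 with doxorubicin plus formononetin against doxorubicin (adjusted p = 0.000667). LOXL1 changed by 1.54 ± 0.38 with doxorubicin against vehicle (adjusted p = 0.0101), and the LOXL3 call reached an adjusted p of 0.125 under the alternatives. LOXL2, TGM2, LOXL4 and LOXL3 were lower and LOX was higher with doxorubicin plus formononetin against doxorubicin. In that comparison 13.5% of all genes were lower and 14.7% higher. LOXL2 and TGM2 were called under all alternatives. The 4 lower became 2 or 3 in every fit with 1 library left out. They were 2 without replicate 3 of doxorubicin plus formononetin, doxorubicin replicate 2 or 3, or vehicle replicate 1. LOX was called without replicate 3 of doxorubicin plus formononetin, vehicle replicate 1 or vehicle replicate 2, and not without any of the others. Among 7 tested propeptidases and their enhancers, BMP1 was higher and PCOLCE2 was lower (-1.47 ± 0.36, adjusted p = 0.00962) with doxorubicin against vehicle. BMP1 and TLL2 were lower, and 0 were higher, with doxorubicin plus formononetin against doxorubicin. The BMP1 call against vehicle was lost without doxorubicin replicate 1 or 2, or vehicle replicate 2 or 3 (adjusted p from 0.0561 to 0.142).

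Proteins that coat collagen fibrils changed in both directions, with 7 of 16 higher and 5 lower in doxorubicin against vehicle. Over all genes 16.3% were higher and 17% lower. The 7 higher became 9 without doxorubicin replicate 2. The 5 lower became 3 without doxorubicin replicate 2 or 3, or vehicle replicate 2 or 3. POSTN, periostin, which joins collagen to other matrix proteins and marks activated fibroblasts, had 23.0, 33.2 and 22.3 CPM in doxorubicin plus formononetin libraries, 236, 135 and 216 CPM in doxorubicin libraries and 19.1, 22.7 and 30.4 CPM in vehicle libraries. TNXB, a tenascin of loose fibrils, had 182, 212 and 144 CPM, 75.6, 48.8 and 39.6 CPM, and 183, 287 and 337 CPM in the same groups. The doxorubicin libraries were above all others for POSTN and below all others for TNXB. POSTN changed by 3.02 ± 0.25 (adjusted p = 3.19e-05), TNXB by -2.30 ± 0.27 (adjusted p = 0.000179), ASPN by 1.03 ± 0.15 (adjusted p = 0.000525) and ABI3BP by -1.74 ± 0.26 (adjusted p = 0.000595) with doxorubicin against vehicle. With doxorubicin plus formononetin against doxorubicin 4 were higher and 4 lower, against 14.7% and 13.5% of all genes. The 4 lower became 2 without replicate 1 of doxorubicin plus formononetin or doxorubicin replicate 1. POSTN changed by -2.90 ± 0.25 (adjusted p = 5.05e-05).

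Collagen receptors had 10 tested members, of which ITGB1, DDR1 and ITGA1 were higher and ADGRG1 and MRC2 lower with doxorubicin against vehicle. The shares over all genes were 16.3% higher and 17% lower. ITGB1, the beta subunit shared by the collagen-binding integrins, had 478, 462 and 534 CPM in doxorubicin plus formononetin libraries, 902, 809 and 759 CPM in doxorubicin libraries and 509.8, 447 and 460.1 CPM in vehicle libraries. Doxorubicin libraries were above the other 6. It changed by 0.80 ± 0.11 (adjusted p = 0.00035), and DDR1, a receptor kinase activated by collagen, by 0.73 ± 0.12 (adjusted p = 0.00134). ADGRG1, an adhesion receptor that binds type III collagen, changed by -0.96 ± 0.14 (adjusted p = 0.000464), and MRC2, an uptake receptor for collagen, by -1.20 ± 0.22 (adjusted p = 0.00205). With doxorubicin plus formononetin against doxorubicin 2 receptors were higher (ADGRG1 and MRC2) and 4 lower (DDR1, ITGB1, ITGA11 and ITGA10). Of all genes 14.7% were higher and 13.5% lower there. The calls of MRC2 and ITGA10 in that comparison were lost in fits without 1 library, with adjusted p up to 0.111 and 0.0826.

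Some markers of cell types that make collagen differed with doxorubicin. The shares over all genes were 16.3% higher and 17% lower with doxorubicin against vehicle. They were 14.7% higher and 13.5% lower with doxorubicin plus formononetin against doxorubicin. Of 11 tested markers of activated fibroblasts, 6 were higher and 1 lower with doxorubicin against vehicle, and 1 was higher and 7 lower with doxorubicin plus formononetin against doxorubicin. POSTN, CILP and LOX among them were also counted in the lists above. The 6 became 3 without doxorubicin replicate 1 or vehicle replicate 2, and the 7 became 3 without doxorubicin replicate 1. The 1 higher became 4 without replicate 3 of doxorubicin plus formononetin, and 0 in 6 of the other fits with 1 library left out. Their sum was 364 to 954 CPM in doxorubicin plus formononetin libraries, 841 to 1144 CPM in doxorubicin libraries and 454 to 556 CPM in vehicle libraries. Of 12 endothelial markers 5 were lower and 0 higher with doxorubicin against vehicle, and 4 were higher and 0 lower with doxorubicin plus formononetin against doxorubicin. Their sum was 1461 to 1661, 1057 to 1239 and 1272 to 1793 CPM in the 3 groups. Of 12 pericyte and smooth muscle markers, 1 was higher and 5 lower in the first comparison and 5 higher and 1 lower in the second, with 8 higher in the second without replicate 3 of doxorubicin plus formononetin, and 3 lower in the first without doxorubicin replicate 1 or 3 or vehicle replicate 1. The sums were 1185 to 1516, 935 to 1071 and 1049.7 to 1300.3 CPM. The part of these markers in the collagen changes was not tested.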

How the data were processed

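The authors deposited 1 table of whole-number counts per gene for 9 libraries, with a gene length for each gene. Which aligner and counter were used, and how strand and shared reads were treated, is not given in the sources used here. Per the labels' protocols, total RNA went into a kit for messenger RNA libraries. Collagen genes with near-identical unnamed loci may share reads. Groups came from the labelled treatment.

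Genes were filtered with filterByExpr (minimum count 10) and scaled by TMM. The edgeR quasi-likelihood test (edgeR 4.0.16, R 4.3.3) had 1 mean per group over all 9 libraries, with Benjamini-Hochberg adjustment over all genes tested. Standard errors are the absolute log2 fold change over the square root of F. Scripts were tested on simulated counts. For doxorubicin against vehicle, 20.9%, 44.8% and 83.3% of simulated 1.5-fold, 2-fold and 4-fold changes were called. Of the calls there, 7.48% were false. A gene that was not called may therefore still have changed. Limma 3.58.1 and DESeq2 1.42.0 gave alternatives. Intervals of count ratios are exact (95%) and cover counting error only.

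The members and gene lists were chosen with earlier results of these data known. The genes named were the main type I, III, IV, VI and XV chains and every called member, plus, from each list, up to 4 genes with the smallest p for doxorubicin against vehicle and all that complete a count of 5 or fewer. Other genes were chosen after their values were seen. No sequences are printed, and some list genes are not reported here.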

Additional observations from a re-analysis of the deposited data

How the results depend on the processing

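Of the 17 members called with doxorubicin against vehicle, 7 were called under all 18 alternatives (COL15A1, COL6A3, COL6A2, COL12A1, COL6A6, COL16A1 and COL27A1), and of the 14 called with doxorubicin plus formononetin against doxorubicin, 9 were (the same 7 genes with COL4A1 and COL6A5). Leaving out 1 library gave 2 to 6 members higher and 7 to 13 lower with doxorubicin against vehicle (3316 to 6657 of all genes called, against 4947). It gave 7 to 12 and 3 to 6 with doxorubicin plus formononetin against doxorubicin (2801 to 4436, against 4173), and 0 to 2 and 0 to 0 with doxorubicin plus formononetin against vehicle (64 to 465, against 262). A fit of the 2 groups alone left 3 members lower with doxorubicin plus formononetin against doxorubicin. With doxorubicin plus formononetin against vehicle, members higher and lower were 1 and 1 with no filter, 1 and 1 in DESeq2, and 1 and 2 in voom with quality weights. All genes called there were 488 with no filter, 748 in DESeq2, 1378 in voom with quality weights and 118 in the 2-group fit. Same-numbered libraries correlated between -0.29 and 0.07, so the numbers were not taken as a pairing. With the replicate block, 4 members were higher and 9 lower with doxorubicin against vehicle, 7 and 4 with doxorubicin plus formononetin against doxorubicin, and 0 and 0 with doxorubicin plus formononetin against vehicle (124 of all genes).

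Changes of sign were seen only where the member was not called in that comparison. Over all tested members and alternatives there were 12 with doxorubicin against vehicle and 11 with doxorubicin plus formononetin against doxorubicin. With doxorubicin plus formononetin against vehicle there were 28. For COL1A2 with doxorubicin plus formononetin against doxorubicin, leaving out 1 library gave -0.091 to 0.496, the lowest without replicate 2 of doxorubicin plus formononetin. COL14A1 with doxorubicin against vehicle ran from -0.15 to 0.20 over the alternatives. Most of the sign changes were with doxorubicin plus formononetin against vehicle. In that comparison COL8A1 ran from -0.471 to 0.22 over the alternatives. There, leaving out 1 library gave -0.23 to 0.0007 for COL15A1, -0.466 to 0.064 for COL5A1, -0.194 to 0.293 for COL6A2 and -0.267 to 0.189 for LOC100623720. COL6A2 was -0.027 in voom with quality weights. The cause was not tested. The members given as counts, and the 10 not tested, had few reads, and their values are imprecise.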

Other observations

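Most macrophage markers were not called. Of 10 tested markers, 2 were higher, or 4 without vehicle replicate 3, and 0 lower with doxorubicin against vehicle. Over all genes 16.3% were higher and 17% lower. With doxorubicin plus formononetin against doxorubicin 0 were higher and 3 lower, against 14.7% and 13.5% of all genes. AIF1, an actin-binding protein of macrophages, changed by 1.88 ± 0.24 (adjusted p = 0.000245) and FCGR3A, an Fc receptor, by 1.43 ± 0.17 (adjusted p = 0.000179) with doxorubicin against vehicle. The summed level was 256 to 292 CPM in doxorubicin plus formononetin libraries, 328 to 354 CPM in doxorubicin libraries and 177 to 307 CPM in vehicle libraries. The 3 tested epicardial and mesothelial markers gave 0 calls in each comparison.

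Cardiomyocyte markers were lower in 11 of 12 with doxorubicin against vehicle, with sums of 51101 to 58920 CPM in doxorubicin libraries and 76219 to 85278 CPM in vehicle libraries. RYR2, the calcium release channel, changed by -1.35 ± 0.16 (adjusted p = 0.000173). With doxorubicin plus formononetin against doxorubicin, 7 of the 12 were higher and 0 lower, with 4 higher without replicate 1 of doxorubicin plus formononetin and 3 without doxorubicin replicate 1 or 2. The Schwann cell list had 4 of 9 lower with doxorubicin against vehicle and 8 of 9 higher with doxorubicin plus formononetin against doxorubicin. Of all genes 17% were lower in the first of these comparisons and 14.7% higher in the second.

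A locus described in the table as a collagen alpha-1(I) chain, LOC110255782, averaged 238 ± 34.5 CPM in doxorubicin plus formononetin libraries, 210.1 ± 21.8 CPM in doxorubicin libraries and 288 ± 32.97 CPM in vehicle libraries (SD, n = 3 each), while COL1A1 was highest on average in doxorubicin plus formononetin libraries. It was lower with doxorubicin against vehicle (-0.46 ± 0.13, adjusted p = 0.0222). LOC110260402, described as an alpha-2(I) chain-like locus, averaged 9.996 ± 1.69 CPM in doxorubicin plus formononetin libraries, 4.91 ± 1.71 CPM in doxorubicin libraries and 11.4 ± 0.982 CPM in vehicle libraries. It was also lower with doxorubicin against vehicle (-1.21 ± 0.24, adjusted p = 0.00318), and higher with doxorubicin plus formononetin against doxorubicin (1.03 ± 0.24, adjusted p = 0.00997). Both loci were chosen after their values were seen. Neither was followed through the alternatives, and whether either shares reads with COL1A1 or COL1A2 was not tested.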
